A study of Rattus norvegicus with 10 samples.

Results

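Of 6 named enzymes of glucuronidation and sulfation, 5 were measured in rat liver: Ugt2b1, Ugdh, Sult1a1, Sult1b1 and Sult1e1. They were chosen by name, as every probe set (a group of short probes read out as 1 value) whose array annotation gives the enzyme's gene symbol. Each of the 5 genes had 1 probe set, so that 5 of 31042 probe sets and 5 of 14217 genes on the array were members. The sixth name, Ugt2b17, is carried by no probe set under that symbol. RefSeq gives it as another name of both Ugt2b1 and Ugt2b15, so no value is assigned to it, and Ugt2b15 is described with the other genes. The names were picked with the signals of these same arrays across the diets already known, so the members' differences between diets are given as descriptions, with no p-value.

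Livers came from male Wistar rats, an outbred laboratory stock, fed for 12 weeks on a standard chow diet or on 1 of 4 high-fat diets. The high-fat diets supplied 42% of their energy as fat: lard, olive oil, coconut fat, or a marine oil labelled as fish oil and named in the study's design as cod liver oil; no fat share is given for chow. All rats had fasted overnight and were killed with CO2, and RNA was taken from a piece of the right ventral lobe. Each diet has 2 Affymetrix Rat 230 2.0 arrays, 10 in all. The labels give neither the rats' age or genotype nor whether an array holds 1 animal or a pool, so the spread between the 2 arrays of a diet may be partly technical. The question of the study's title is which effects of a high-fat diet depend on the type of fat.

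Glucuronidation and sulfation make steroids, bilirubin, bile acids, thyroid hormones, phenols and drugs soluble enough to leave the liver in bile or urine. UDP-glucuronosyltransferases (UGTs) sit in the endoplasmic reticulum and transfer glucuronic acid from UDP-glucuronic acid, which Ugdh makes in the cytosol by oxidising UDP-glucose. Cytosolic sulfotransferases (SULTs) transfer sulfate from PAPS, the activated sulfate that the Papss enzymes make. The hepatocyte carries most of both reactions, and rat UGT and SULT genes are known to differ between the sexes and to respond to nuclear receptors such as CAR, PXR and PPARα.

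Signals are the authors' MAS5 values, on a linear scale with a trimmed mean of 100 (100.1 on the second fish oil array). The median signal ran from 28.7 to 31.9 on 9 arrays and was 36.8 on the second lard array. Log2 signals correlated with r of 0.919 to 0.935 between arrays of 1 diet and 0.908 to 0.934 between arrays of different diets. The 8 hepatocyte markers on the array (Alb, Ttr and others) summed to 54705 to 64562 per array, and none was at or below background, set at 12.8 by the brightest of 3 control probe sets for a bacterial trp gene, on all arrays. A fold change below is a difference of mean log2(signal + 3.1) in a limma fit over all 10 arrays, and SE is its standard error from that fit. A gene passed the test where the adjusted p over all 18626 probe sets bright enough to test was under 0.05, and all 5 members were among these.

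Ugt2b1, a UGT of rat liver that conjugates steroids and drugs such as morphine, was highest with fish oil. Its signal was 549.7 and 843.5 on the chow arrays, 423 and 523 with lard, 334 and 514 with olive oil, 151 and 520.4 with coconut fat, and 1529 and 3223 with fish oil. Both fish oil arrays lay above the other 8, as they did for 3.72% of all probe sets tested, while the 6 lard, olive oil and coconut fat arrays all lay below both chow arrays, as they did for 4.58% of all probe sets. In bulk liver RNA, more cells of a type and more RNA per cell cannot be told apart. The diet means were, from low to high, coconut fat (336 ± 261, SD, n = 2), olive oil (424 ± 127), lard (473 ± 70.6), chow (697 ± 208) and fish oil (2376 ± 1197). Neighbours in that order overlapped except lard and chow, and chow and fish oil. On the log2 scale the fish oil mean was 1.70 above chow (SE 0.50), which is 3.25-fold. The differences from chow were -0.53 for lard, -0.71 for olive oil and -1.27 for coconut fat (SE 0.50 each). Against the mean of these 3 other high-fat diets, fish oil was 2.54 higher (SE 0.41, 5.80-fold).

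The 2 arrays of a diet were themselves far apart for Ugt2b1. The higher fish oil array was 2.11 times the lower, and the higher coconut fat array 3.39 times the lower; the ratio was 1.23 for lard. Without the first fish oil array, fish oil was 3.07 above the 3 other high-fat diets on the log2 scale, and without the second it was 2.00 above them. Without the first coconut fat array, the dimmest of the 10, the difference was 2.24.

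**Figure D1:**
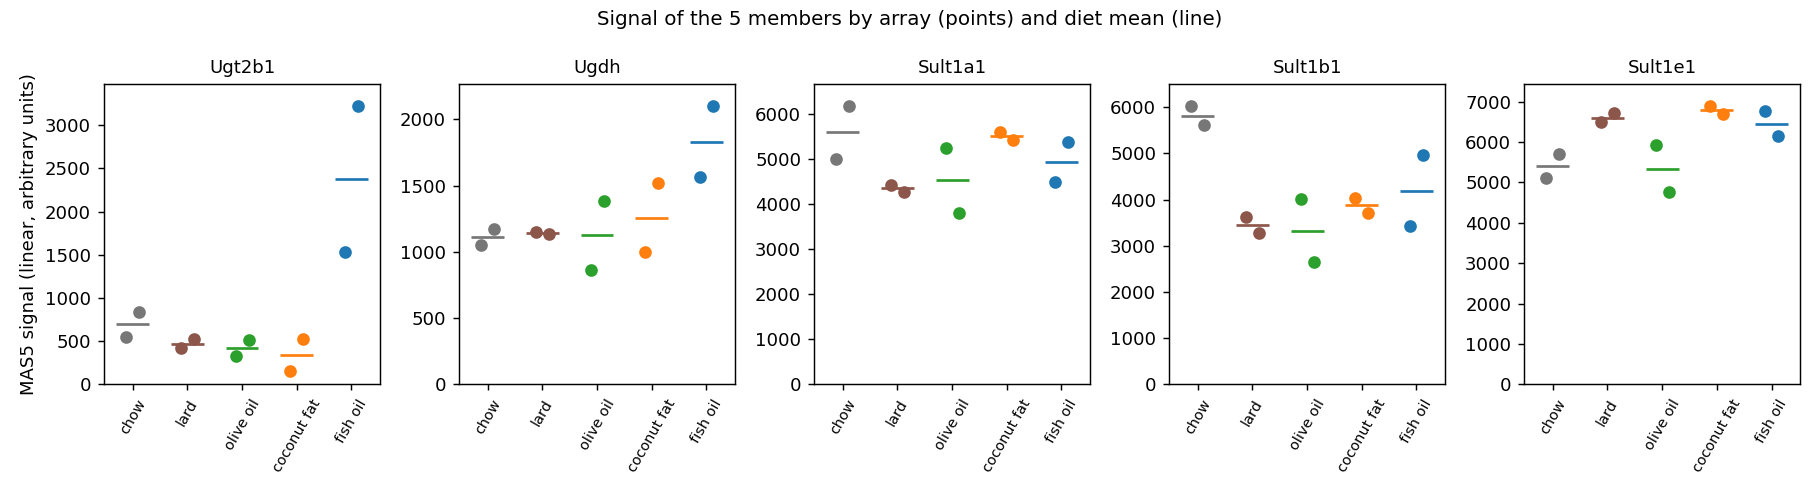
MAS5 signal of the 5 measured enzymes (vertical axis, linear, from 0) by diet (horizontal axis), with a point for each of the 10 arrays and a line at the mean of the 2 arrays of a diet. Ugt2b1 and Ugdh are highest on both fish oil arrays, Sult1b1 on both chow arrays, and Sult1a1 and Sult1e1 keep within 3806 to 6189 and 4751 to 6893.

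Ugdh, which makes the UDP-glucuronic acid that all UGTs consume, was also highest on both fish oil arrays, by a smaller margin. Its signal was 1049.9 and 1171 with chow, 1149.6 and 1136 with lard, 863 and 1387 with olive oil, 998 and 1518 with coconut fat, and 1561 and 2101 with fish oil. The lower fish oil array exceeded the highest of the other 8, a coconut fat array at 1518, by little. Both fish oil arrays lay above the other 8 for 3.72% of all probe sets tested. Mean signal was 1110 ± 85.3 (SD, n = 2) for chow, 1125 ± 371 for olive oil, 1143 ± 9.90 for lard, 1258 ± 368 for coconut fat and 1831 ± 382 for fish oil. The first 4 of these overlap their neighbours, and coconut fat and fish oil do not. Fish oil was 0.71 above chow on the log2 scale (SE 0.25, 1.63-fold) and 0.65 above the 3 other high-fat diets (SE 0.20, 1.57-fold). Lard, olive oil and coconut fat differed from chow by 0.04, -0.02 and 0.15, each less than its SE of 0.25.

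The sulfotransferases did not share that order. Sult1b1, which sulfates thyroid hormones and small phenols, was highest on the chow arrays. Its signal was 6026 and 5606 with chow, 3614 and 3274 with lard, 4013 and 2641 with olive oil, 4042 and 3716 with coconut fat, and 3436 and 4954 with fish oil. Both chow arrays lay above all 8 high-fat arrays, the fish oil arrays included (2.51% of all probe sets tested did), and the 4 high-fat diets overlapped except lard and coconut fat. Mean signal was 5816 ± 297 (SD, n = 2) for chow, against 3327 ± 970 for olive oil, 3444 ± 241 for lard, 3879 ± 231 for coconut fat and 4195 ± 1073 for fish oil. Log2 differences from chow were -0.76 for lard, -0.84 for olive oil, -0.58 for coconut fat and -0.49 for fish oil (SE 0.21 each). The mean of lard, olive oil and coconut fat was 0.73 below chow (log2 difference -0.73, SE 0.17, 1.65-fold).

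Sult1a1, the phenol sulfotransferase, varied little. Its signal was 5020 and 6189 with chow, 4431 and 4287 with lard, 5261 and 3806 with olive oil, 5614 and 5435 with coconut fat, and 4501.5 and 5391 with fish oil. The lowest array carried olive oil and the highest chow, and both lard arrays were below both chow arrays, as for 16.7% of all probe sets tested. Mean signal was lowest with lard (4359 ± 102, SD, n = 2), then olive oil (4534 ± 1029), fish oil (4946 ± 629), coconut fat (5525 ± 127) and chow (5604 ± 827). The only neighbours in that order that did not overlap were fish oil and coconut fat, 5391 against 5435. Log2 differences from chow were -0.35 for lard, -0.32 for olive oil, -0.18 for fish oil and -0.01 for coconut fat (SE 0.17 each).

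Sult1e1, the oestrogen sulfotransferase, ran the other way for most fats. Its signal was 5111 and 5712 with chow, 6492 and 6713 with lard, 5929 and 4751 with olive oil, 6893 and 6702 with coconut fat, and 6759.7 and 6138.5 with fish oil. All lard, coconut fat and fish oil arrays lay above both chow arrays, as they did for 3.8% of all probe sets tested, while the olive oil arrays spanned the chow arrays. Mean signal was 5340 ± 833 (SD, n = 2) for olive oil, 5412 ± 426 for chow, 6449 ± 439 for fish oil, 6602 ± 157 for lard and 6798 ± 135 for coconut fat. Log2 differences from chow were 0.25 for fish oil, 0.29 for lard, 0.33 for coconut fat and -0.03 for olive oil (SE 0.14 each). None exceeded 1.26-fold.

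**Figure D2:**
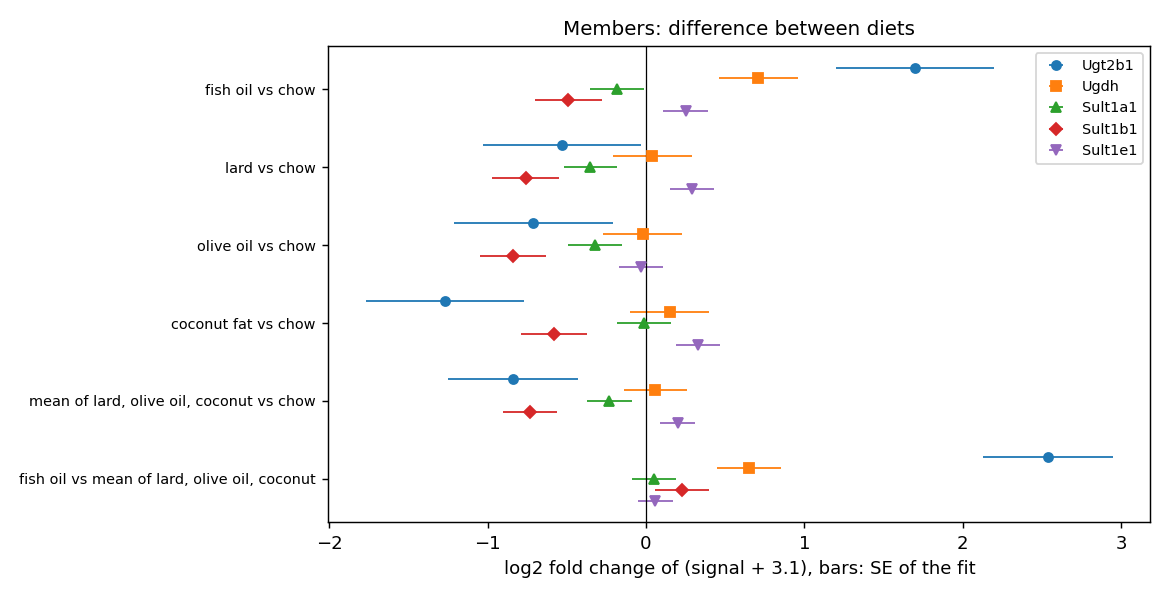
Log2 fold change of the 5 enzymes (points, in log2 units, with bars of 1 standard error from the limma fit) in the 6 comparisons of diets; the zero line marks no difference. Ugt2b1 spans from -1.27 with coconut fat against chow to 2.54 with fish oil against the 3 other high-fat diets, and Sult1a1 and Sult1e1 keep within -0.35 to 0.33.

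Counted by the threshold used for all probe sets, 0 of 5 members were past it in fish oil against chow, where 0.156% of all probe sets tested were (29 probe sets). It was also 0 of 5 for lard (0.0161% of all), olive oil (0.0268%), coconut fat (0%, and 1012 of all probe sets at an unadjusted p under 0.05) and the mean of these 3 diets (0.0537%), each against chow. The 4 diets were compared with the same 2 chow arrays. In fish oil against the 3 other high-fat diets, 1 of 5, Ugt2b1, was past the threshold, beside 0.424% of all probe sets. Those were 79 probe sets, 35 higher (0.188%) and 44 lower, and 44 higher and 35 lower where arrays were scaled to the same 75th percentile. Since these comparisons chose the members, nothing is read from their counts. The count of 1 was 0 in a fit with no intensity trend, and where the first or second lard array (log2 difference of Ugt2b1 2.49 and 2.59), olive oil array 1 (2.43) or either fish oil array (3.07 and 2.00) was left out. The median log2 difference of the members was 0.25 for fish oil, -0.35 for lard, -0.32 for olive oil and -0.01 for coconut fat against chow, beside -0.01, 0.04, 0.02 and -0.02 over all probe sets tested.

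The 8 macrophage markers on the array (Cd68, Cd163 and others) summed to 2437 to 2824 with fish oil and 2929 to 3913 on the other 8 arrays. In limma 0 of 8 passed; at an unadjusted p under 0.05, 4 of 8 were lower in fish oil against the mean of lard, olive oil and coconut fat, and 1 of 8 was lower in fish oil against chow, beside 13.1% and 8.52% of all genes in either direction. Hepatocyte markers summed to 55862 to 57770 with fish oil, within the range of the other arrays. Enterocyte markers (5 genes) summed to 195 to 423 with fish oil and 205 to 949 elsewhere. Kidney tubule markers (4 genes) summed to 75 to 86 with fish oil and 50 to 99 elsewhere, with Aqp2 at or below background on all 10 arrays. For cholangiocytes (5 genes), the sum was 221 to 263 with fish oil and 124 to 307 elsewhere. For stellate cells (7 genes) it was 956 to 990 with fish oil and 978 to 1231 elsewhere, and for endothelium (4 genes) 1643 to 1746 and 1325 to 1805. At a limma unadjusted p under 0.05, fish oil against chow had 1 of 8 hepatocyte markers lower, 1 of 7 stellate lower and 1 of 3 enterocyte markers tested higher. Cholangiocyte, endothelial and kidney tubule markers had 0. Against the mean of lard, olive oil and coconut fat, 1 of 7 stellate and 1 of 4 endothelial markers were lower with fish oil. Hepatocyte, cholangiocyte, enterocyte and kidney tubule markers had 0. The part of these cell types in the enzymes' values was not tested.

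Of the 5 members, 4 lie on rat chromosome 14, and 3 of these in a single run of conjugating genes. In RefSeq's GRCr8 build, Sult1e1 is at chr14:20700444-20718719, Sult1b1 at chr14:20771917-20784665, Ugt2b1 at chr14:21378882-21390631 and Ugdh farther along at chr14:43202480-43226002, while Sult1a1 is at chr1:190702592-190706112. From Sult1e1 to the last Ugt2 gene, 14 protein-coding Sult1 and Ugt2 genes take up 824 kb (chr14:20700444-21524095). Of these, 11 had a probe set, 12 in all, and 10 of the 12 were bright enough to test. The promoters of several Ugt2b genes in this run share a stretch of 25 letters just before the gene's start, in capitals below. Ugt2b1's promoter, also shown, does not hold it letter for letter. The printed Ugt2b1 sequence matches the stretch in part, and only full matches were counted. Sequences are RefSeq's, plus strand, 5′ to 3′.

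Ugt2b, chr14:20985359-20985419: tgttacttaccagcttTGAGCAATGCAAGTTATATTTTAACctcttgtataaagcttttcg
Ugt2b15, chr14:21122772-21122832: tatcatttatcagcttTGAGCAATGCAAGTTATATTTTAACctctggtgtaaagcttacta
Ugt2b37, chr14:21172054-21172114: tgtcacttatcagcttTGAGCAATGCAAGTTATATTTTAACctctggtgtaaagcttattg
Ugt2b35, chr14:21208338-21208398: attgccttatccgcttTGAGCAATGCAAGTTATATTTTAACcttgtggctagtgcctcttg
Ugt2b7, chr14:21251429-21251489: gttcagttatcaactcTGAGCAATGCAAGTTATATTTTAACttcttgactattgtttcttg
Ugt2b1, chr14:21378782-21378881: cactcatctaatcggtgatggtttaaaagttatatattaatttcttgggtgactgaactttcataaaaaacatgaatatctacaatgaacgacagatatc

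The shared stretch, TGAGCAATGCAAGTTATATTTTAAC, begins 74 bases before the start of Ugt2b, 78 before Ugt2b15, 66 before Ugt2b37, 35 before Ugt2b35 and 90 before Ugt2b7. For Ugt2b35 RefSeq's promoter entry takes a start 52 bases farther on, so the last 10 letters printed lie past the gene's first base. The stretch was picked after these promoters had been read, and was searched on both strands in the 250 bases before each promoter entry's start. It was found in 7 of 33469 RefSeq promoters (0.0209%), among them that of Ugt2b7l1, which is not printed and had no probe set. Among the listed genes that hold it, those bright enough to test did not share a pattern across the arrays. Ugt2b35 stayed between 4069 and 5009 on all 10 arrays and Ugt2b15 between 2498 and 3566, whereas Ugt2b, described next, ran from 13.1 to 6093. Ugt2b37, like Ugt2b7l1, had no probe set, and Ugt2b7 was too dim to test. For Ugdh, the promoter was searched for TGACNNNGC, the core that the oxidative-stress factor Nrf2 is known to bind, and for GCGTG, the core of the aryl hydrocarbon receptor's site. The reverse strand of TGACNNNGC is in capitals.

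Ugdh, chr14:43202295-43202339: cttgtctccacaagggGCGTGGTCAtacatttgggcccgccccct

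The match begins 169 bases before the first base of Ugdh, or 207 before the start that RefSeq's promoter entry takes, and its first letters also spell GCGTG. TGACNNNGC is held by 10.1% of the 33469 promoters and GCGTG by 25.9%. A match of letters is a description and does not show that a factor binds there.

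Ugt2b, a neighbour of the measured Sult1 and Ugt2b members that RefSeq also calls Ugt2b2, is the androsterone UGT of rat liver and had the widest range of the listed genes. On its brighter probe set the signal was 6093 and 5309 with chow, 31.2 and 43.7 with lard, 38.9 and 19.9 with olive oil, 27.2 and 68.0 with coconut fat, and 13.1 and 5645 with fish oil. Its other probe set gave 975 and 614 with chow, 3.70 to 12.8 on the 6 lard, olive oil and coconut fat arrays, and 13.1 and 472 with fish oil. Both probe sets were thus high on both chow arrays and on the second fish oil array, and low on the other 7. The difference between the 2 fish oil arrays, 8.45 on the log2 scale for the brighter probe set and 4.87 for the other, ranked 1 and 2 among 18626 probe sets. As background, an inherited loss of androsterone glucuronidation is known to occur in some Wistar rats; the labels give no genotype, and its part here was not tested.

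The fit over all 10 arrays took the gap between the fish oil arrays into its spread. For the brighter probe set of Ugt2b, fish oil was -4.23 from chow (limma adjusted p = 0.626), lard -7.15 (0.421), olive oil -7.52 (0.281), coconut fat -6.94 (0.693), and the mean of these 3 diets -7.20 (0.228). For the other probe set, the mean of the 3 diets was -6.32 from chow, which passed the test (limma adjusted p = 0.0449). That call was kept in 5 of 7 other settings and in 0 of 8 fits that left out 1 array, and its limma adjusted p ran from 0.000164 to 0.281 over these alternatives. On this probe set Ugt2b was not above background with lard, olive oil or coconut fat, and its mean was at least 48.9-fold higher with chow than with each of them. With only the diets compared in the fit, both probe sets were lower with lard, olive oil and coconut fat than with chow, with limma adjusted p from 2.1e-05 to 0.00146. Fish oil was -8.46 from chow with the second fish oil array left out and -0.01 with the first left out, so that 1 array decides this value. Against the 3 other high-fat diets, fish oil was 2.97 higher (limma adjusted p = 0.482) with both of its arrays and 7.19 higher without the first (limma adjusted p = 0.000359). Without the second, the direction turned, to -1.25 (limma adjusted p = 0.377).

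**Figure D3:**
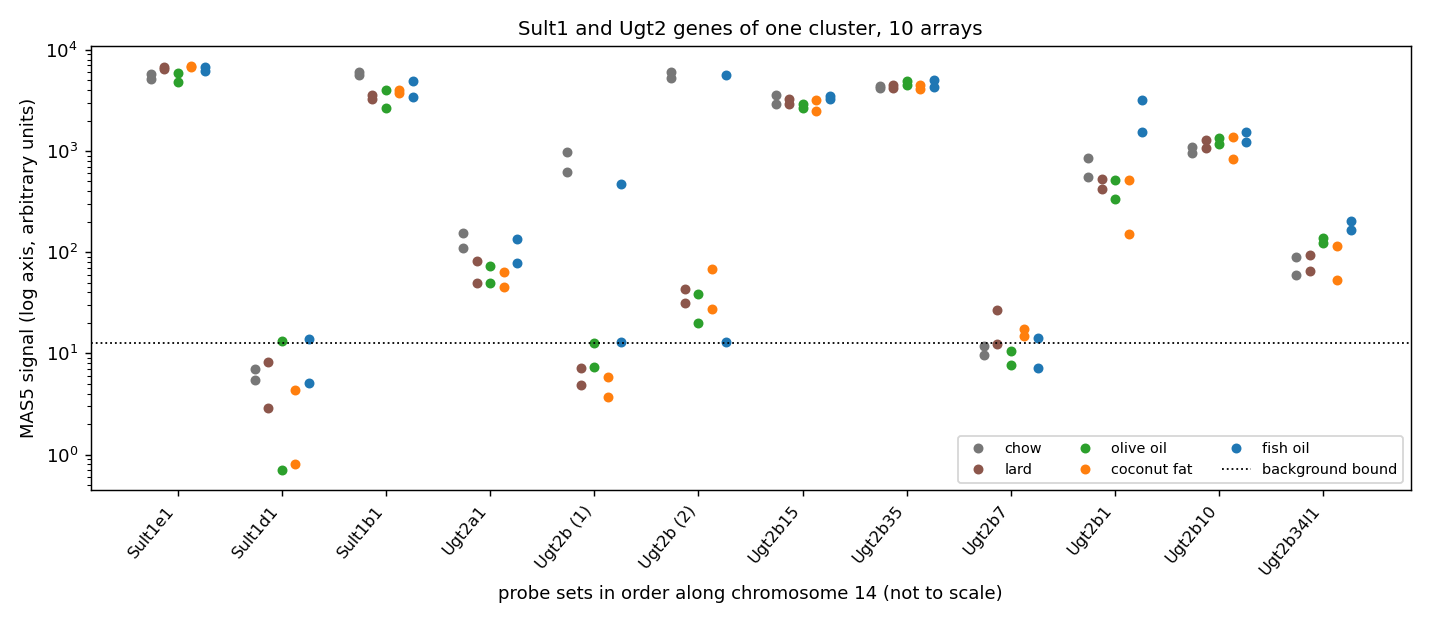
MAS5 signal (vertical axis, log scale) of the 12 probe sets of Sult1 and Ugt2 genes in the run on chromosome 14, in genome order along the horizontal axis, with a point for each of the 10 arrays coloured by diet; the dotted line is the background bound of 12.8, and Ugt2b (2) is the brighter of the 2 Ugt2b probe sets. Both Ugt2b probe sets are high on both chow arrays and on 1 fish oil array and low on the rest, whereas Ugt2b1 and Ugt2b34l1 are highest on both fish oil arrays.

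Among the rest of the run, Ugt2b34l1 was the other probe set with both fish oil arrays above the other 8. Such a separation was found for 3.72% of all probe sets tested. Ugt2b34l1 gave 204.5 and 167.5 with fish oil against 53.4 to 137 elsewhere. It did not pass the test in fish oil against the 3 other high-fat diets (log2 difference 0.97, SE 0.28, limma adjusted p = 0.198). Ugt2b15, a steroid UGT, gave 3566 and 2923 with chow and 3484 and 3246 with fish oil, and 2498 to 3255 on the 6 other arrays, which both diets overlap. Ugt2a1, known as the olfactory UGT, gave 153 and 109.5 with chow, and 78.0 and 136 with fish oil. Both chow arrays lay above the 6 lard, olive oil and coconut fat arrays (44.9 to 81.8), as for 4.58% of all probe sets tested. The log2 difference of Ugt2a1 for the mean of those 3 diets against chow was -1.09 (SE 0.29, limma adjusted p = 0.337). Sult1d1 and Ugt2b7 were too dim to be tested.

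The Ugt1a family, which includes the bilirubin UGT, was read by 2 probe sets that are each annotated to 8 Ugt1a genes and so cannot tell them apart. The first gave 5822 and 3488 with chow, 2244 and 2705 with lard, 3028 and 2779 with olive oil, 3205 and 3621 with coconut fat, and 4888 and 5584 with fish oil. Both fish oil arrays lay above the 6 lard, olive oil and coconut fat arrays and between the 2 chow arrays, and the second probe set showed the same (4235 and 5463 with fish oil, 2247 to 3276 on the 6 arrays). Such separation of fish oil from the 3 other high-fat diets was found for 5.96% of all probe sets. The log2 differences were 0.85 (SE 0.17, limma adjusted p = 0.0730) and 0.82 (SE 0.20, limma adjusted p = 0.124), and both passed with only those diets in the fit. Fish oil against chow gave 0.21 and 0.19.

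Of the other genes of conjugation, 83 were listed, 64 had a probe set and 58 were bright enough to test, each by its brightest probe set. In limma, 0 of 58 passed in any of the 6 comparisons; the Ugt2b probe set that passed above is the dimmer of its gene. At an unadjusted p under 0.05 there were 7 for fish oil, 11 for lard, 14 for olive oil, 11 for coconut fat and 12 for the mean of the last 3, each against chow, and 13 for fish oil against those 3. These are 12.1%, 19.0%, 24.1%, 19.0%, 20.7% and 22.4% of the listed genes, beside 8.52%, 7.82%, 8.69%, 5.81%, 7.87% and 13.1% of 10470 genes in all. The lists, like the members, were chosen with earlier results of these data known. Nothing is therefore read from these shares or from the counts per list below. The median log2 difference of the listed genes lay between -0.02 and 0.07 in every comparison.

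**Figure D4:**
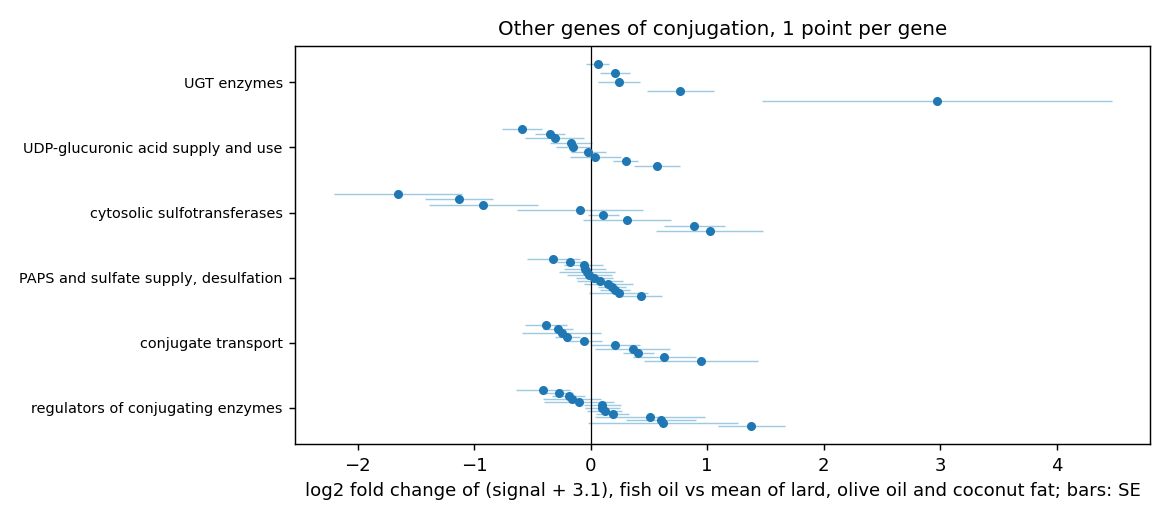
Log2 fold change of fish oil against the mean of lard, olive oil and coconut fat (horizontal axis, with bars of 1 standard error) for the 58 other genes of conjugation that were tested, 1 point per gene by its brightest probe set, grouped by list. The 5 UGT genes lie from 0.06 (Ugt2b35, SE 0.10) to 2.97 (Ugt2b with its wide bar, -1.25 without the second fish oil array). Of the 58 genes, 32 lie above 0, and each of the other lists has genes on both sides. The median of all 10470 genes is -0.01.

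Among genes that supply or use UDP-glucuronic acid (9 tested), 4 were under an unadjusted p of 0.05 in fish oil against the 3 other high-fat diets, 2 higher and 2 lower. Of all genes, 13.1% were under it in that comparison, in either direction. Ugp2, which makes the UDP-glucose that Ugdh oxidises, gave 2731 and 3594 with fish oil and 3091 and 2623 with chow, and 1620 to 3021 on the 6 other arrays. Fish oil overlapped those 6 arrays, with a log2 difference of 0.57 (SE 0.20, limma adjusted p = 0.276). Gulo, the last step of vitamin C synthesis from glucuronic acid in the rat, lay between 1985 and 2738 on all arrays by its brighter probe set. Its other probe set lay between 1294.5, with olive oil, and 2394.1, with chow.

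Among the other sulfotransferases (8 tested), 4 were under an unadjusted p of 0.05 with olive oil against chow, 3 higher and 1 lower. With coconut fat against chow there were 4, 1 higher and 3 lower. Of all genes, 8.69% were under it with olive oil and 5.81% with coconut fat, in either direction. Sult1c2a gave 1571 and 1081 with fish oil, 1254 and 1112 with chow, and 444.5 to 1095 on lard, olive oil and coconut fat arrays. The lower fish oil array lay within the range of these 3 other high-fat diets. Fish oil differed from their mean by 0.89 on the log2 scale (SE 0.26, limma adjusted p = 0.208), and from chow by 0.14. Sult1c3 lay between 2980 and 4177 on all arrays. Sult2a6, a hydroxysteroid sulfotransferase, was lowest with coconut fat (150 and 266, against 388 to 2450 on the other 8 arrays, a separation found for 2.47% of all probe sets), and its log2 difference from chow was -2.0 (SE 0.66, limma adjusted p = 0.795). Its 2 olive oil arrays, at 704 and 2450, show the spread behind that p. Sult1c2 was -1.46 for the mean of lard, olive oil and coconut fat against chow (SE 0.46, limma adjusted p = 0.445). Sult4a1, a brain sulfotransferase, ran from 5.50 with coconut fat to 106 with olive oil. It was dim with chow (17.8 and 24.8) and fish oil (17.8 and 7.5). Its log2 difference was 1.84 for olive oil against chow (SE 0.67, limma adjusted p = 0.499). For fish oil against the 3 other high-fat diets it was -1.65 (SE 0.55, limma adjusted p = 0.257).

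Papss2, which makes PAPS, was lowest on both olive oil arrays with each of its 2 probe sets. The brighter gave 662 and 790.1 with olive oil and 877 to 1228 on the other 8 arrays, and the other gave 728 and 695 against 891 to 1045. Olive oil differed from chow by -0.69 on the log2 scale (SE 0.15, limma adjusted p = 0.173) and by -0.47 (SE 0.13, limma adjusted p = 0.334). For both olive oil arrays to lie below the other 8 was found for 2.70% of probe sets. For PAPS and sulfate supply (13 genes tested, Papss2 included), 2 were under an unadjusted p of 0.05 with olive oil against chow, both lower. Of all genes, 8.69% were under it, in either direction. Slc26a1, a sulfate carrier, lay between 566.5 and 859 on all arrays.

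Of the transporters that carry conjugates (10 tested), Abcg2, an efflux pump, was 2.03 higher with fish oil than with chow (SE 0.60, limma adjusted p = 0.372), on signals of 123 and 158 against 14.9 and 64.0. The difference was 1.09 without the first chow array and 2.98 without the second. Lard (39.2 and 129), olive oil (112 and 76.6) and coconut fat (44.5 and 61.9) differed from chow by 1.10, 1.46 and 0.68 on the log2 scale, and the second lard array was above the first fish oil array. Slco1a4, an uptake carrier, was read by a brighter and a dimmer probe set. The brighter gave 2753 and 3903 with fish oil, 3997 and 2298 with chow and 1538 to 2824 on the 6 other arrays. The dimmer gave 1537.6 and 1879.6 with fish oil, 1978.7 and 1049.9 with chow and 670.2 to 1202.3 on those 6. Only on the dimmer did both fish oil arrays lie above those 6, as for 5.96% of all probe sets tested. Against the 3 other high-fat diets, fish oil was 0.63 and 0.92 higher on the log2 scale, and neither passed. Slc10a1 (NTCP), the bile acid uptake carrier, lay between 4783 and 6069 on all 10. Both fish oil arrays (4783 and 4818) lay below the other 8 (5059 to 6069). How many probe sets separate that way was not counted. The log2 difference of Slc10a1 between fish oil and chow was -0.15, which did not pass. Abcc3 (MRP3), which returns glucuronides to the blood, was too dim to be tested and was named after its values were seen. It gave 65.8 and 89.4 with fish oil and 4.0 to 17.4 on the other 8 arrays. Both fish oil arrays lay above the other 8 for 3.72% of the probe sets bright enough to test, which do not include Abcc3. Chow was not above background, and the fish oil mean was at least 5.02-fold higher than chow.

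Of the regulators (13 tested), Nr1i3 (CAR), a receptor known to induce conjugating enzymes, was also named after its values were seen. Its signal was 294 and 131 with chow, 227 and 221 with lard, 74.3 and 65.3 with olive oil, 208 and 394 with coconut fat, and 436 and 432 with fish oil. Both fish oil arrays were above the other 8, as for 3.72% of all probe sets tested. Both olive oil arrays were below the other 8, as for 2.7%. Fish oil differed from the 3 other high-fat diets by 1.38 on the log2 scale (SE 0.29, limma adjusted p = 0.0778, with a range of 0.0262 to 0.283 over the alternatives). Arnt, the partner of the aryl hydrocarbon receptor, was -2.17 with lard against chow (SE 0.57, limma adjusted p = 0.429), on dim signals of 4.30 and 23.3. Hnf4a, a hepatocyte factor, lay between 1629.8 and 2388 by its brightest probe set, and Nr1h4 (FXR), the bile acid receptor, between 554 and 984. For sex-patterned liver genes such as Cyp2c11, which share regulators with UGT and SULT genes, 0 of 10 tested passed in any comparison. At an unadjusted p under 0.05 there were 0 for fish oil and 0 for lard, each against chow. Olive oil against chow had 2 (both lower), coconut fat 2 (both higher) and the mean of lard, olive oil and coconut fat 1 (lower). Fish oil against that mean had 1 (higher). Over all genes, in either direction, the shares in that order were 8.52%, 7.82%, 8.69%, 5.81%, 7.87% and 13.1%.

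Across the 10 arrays, the genes whose log2 signals followed a member most closely were found by Pearson r, given with no test; the arrays share diets, scaling and RNA quality. Ugt2b1 was followed by Nol6 (r = 0.933), Nqo1 (r = 0.916) and Tnpo2 (r = 0.902). Ugdh was followed by Ano10 (r = 0.940), Atxn10 (r = 0.923) and St13 (r = 0.913). Between members, r was 0.82 for Ugt2b1 and Ugdh and 0.76 for Sult1a1 and Sult1b1, and it lay between -0.12 and 0.24 for the other 8 pairs. Sult1b1 was followed by Enpp4 (r = 0.923), Prtfdc1 (r = 0.919) and Mat1a (r = 0.907), Sult1a1 by Sf3b2 (r = 0.936), Prdx5 (r = 0.929) and Pnp (r = 0.916), and Sult1e1 by Ckap4 (r = 0.920), Hgh1 (r = 0.905) and Tprkb (r = 0.897). With 10 arrays and 18626 probe sets to choose from, r of this size is reached for every member.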

How the data were processed

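The 10 Affymetrix Rat 230 2.0 arrays measured liver RNA as biotin-labelled cRNA. Signal intensity per probe set was made by the authors with MAS5, per the submitters' processing notes; the version and scaling target are not given in the sources used here, and the deposited values have an equal trimmed mean on every array. MAS5 scaling makes a signal relative to the other genes of its array, and a dim signal is imprecise. The number of arrays limits the precision.

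From the deposited intensity values, 57 control probe sets of 31099 were removed, and the 40% with the lowest mean log2 value were left out (12416), leaving 18626. Log2(signal + 3.1), 3.1 being the 10th percentile of all values, was fitted in limma 3.58.1 (R 4.3.3) with 1 mean per diet over all 10 arrays, empirical Bayes with an intensity trend (5 residual and 5.96 prior degrees of freedom) and Benjamini-Hochberg adjustment at 0.05. The fit was tested on simulated data. The members and the lists (conjugation genes, sex-patterned genes, cell markers) were chosen with earlier results of these data known. Other genes were named where they passed (up to 10 per comparison), or, with none passing, as the 2 with the largest change, and as the 2 brightest of each list, besides Abcc3, Nr1i3 and neighbours on chromosome 14 (Ugt2a1, Ugt2b34l1). Nothing in the labels says that arrays are separate animals, so p-values measure the spread between arrays. Symbols came from the platform annotation: 20826 probe sets had 1 symbol, 436 several and 9780 none. A gene not above background on both arrays of a diet got a bound: the mean of the brighter diet over, per array, the higher of 12.8 and its own signal.

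Same-numbered arrays of different diets did not deviate together (r from -0.033 to 0.0756 over 10 pairs of diets), so the numbers do not pair the arrays. Alternatives were quantile normalization, scaling to the 75th percentile, the 25th percentile as offset, no filter or a 60% filter, no intensity trend, a replicate block, leaving diets not compared out of the fit, the probe set with the smallest p, and leaving out each array.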

Additional observations from a re-analysis of the deposited data

How the results depend on the processing

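Of 2708 recomputed values, 2624 kept their side of the threshold or, for counts and members, their size, while 59 moved, 15 newly passed and 10 no longer passed. Of 192 log2 differences, 69 changed sign under some alternative, 0 of them past the threshold as reported; the largest was Ugt2b (2.97), described above. Counts are of probe sets past the threshold. Without the intensity trend, they were 7 for fish oil against chow (29 as reported), 1 for lard (3), 0 for olive oil (5), 0 for the mean of lard, olive oil and coconut fat against chow (10) and 6 for fish oil against that mean (79). With only the diets compared, they were 8 for lard, 5 for coconut fat (0 as reported), 17 for the mean of the 3 diets against chow and 120 for fish oil against that mean. Quantile normalization gave 0 for lard and 6 for the mean of the 3 diets against chow. With no filter, olive oil had 11, and with the lowest 60% left out, 16. With the replicate block, lard had 0, and the other counts were 20 for fish oil, 6 for olive oil, 0 for coconut fat, 10 for the mean of the 3 diets and 60 for fish oil against it; the arrays share only a number. Of the listed genes other than the members, the fit of only the diets compared called 1 (Ugt2b) for lard, olive oil, coconut fat and their mean against chow and 1 (Nr1i3) for fish oil against that mean, and the probe set with the smallest p called 1 (Ugt2b) for the mean against chow.

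Leaving out 1 array gave 5 to 41 probe sets for fish oil against chow, 0 to 6 for lard, 3 to 22 for olive oil, 0 to 3 for coconut fat, 2 to 12 for the mean of the 3 diets against chow and 31 to 108 for fish oil against that mean; an array left alone in its diet is assumed to vary like the others. For the listed genes it gave 0 to 1 for fish oil against chow (Ugt2b, without fish oil array 2) and 0 to 1 for fish oil against the 3 diets (Nr1i3 without coconut fat array 2, Ugt2b without fish oil array 1), and 0 in the other comparisons. The cause of these changes was not tested. With 2 arrays per diet and no animal named for an array, diet and differences between single animals cannot be told apart.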
